A study of Mus musculus with 24 samples.

Results

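The first 12 h of ex vivo culture were compared with the fresh state in wild-type mouse reticulocytes, the enucleated young red cells that still carry RNA. The comparison used 6 of the 24 Illumina bead arrays of the study, the 3 arrays labelled wild type at 12 h against the 3 labelled wild type at 0 h, and it was chosen by these labels alone. All samples came from adult male C57BL/6J mice, from reticulocyte-rich blood that was placed in culture, and the arrays of a group are biological replicates. The other genotype, called only mutant in the labels with the mutated gene not named, had 5 arrays at each time and enters here as a second measurement of the same interval. The authors' sample key gives 15 h for the arrays that the labels place at 12 h. The labels' time is used below, so the interval may be longer than its name. The labels describe no step that removed other blood cells.

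A reticulocyte has lost its nucleus, so it can no longer make new transcripts and its RNA pool is set by what was inherited from the erythroblast and by the decay of each message. During maturation to an erythrocyte the cell removes its mitochondria and ribosomes, partly by autophagy and partly through the ubiquitin-proteasome system, and reshapes its membrane skeleton. Hemoglobin and heme synthesis genes are the most abundant messages at this stage. A bead array reports each message relative to all others on the array, and in a bulk sample fewer cells of a type and less RNA per cell cannot be told apart.

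Transcript levels are given as normalized log2 intensity (background-corrected and quantile-normalized). A probe was counted as detected on an array when its detection p-value was below 0.01, and a gene was called higher or lower when limma's Benjamini-Hochberg adjusted p, taken over 4846 genes, was below 0.05. The cells matched their label: the highest possible level, 15.03, was reached by the alpha-globin gene Hba-a1 on all 3 arrays at 0 h and on 2 of 3 at 12 h, and Alas2, the erythroid enzyme that starts heme synthesis, stood at 14.56 to 14.91. Of 12 reticulocyte and erythroid markers tested, 5 were detected on all 6 arrays, and Rhag, Ermap, Klf1 and Sptb were detected on none. The summed linear level of these 12 genes was 80255 to 84230 at 0 h and 75149 to 76195 at 12 h. Hba-a1 at the highest possible level and Alas2 near it make up most of this sum, so quantile normalization largely sets it.

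The 0 h arrays did not form a uniform group. The share of probes detected at 0 h was 4.62%, 2.17% and 3.58% on arrays 1 to 3, against 6.62%, 5.61% and 4.92% at 12 h. The means were 3.46% ± 1.23 (SD, n = 3) and 5.72% ± 0.85 (SD, n = 3), a difference of 2.26 percentage points with an exact two-sided permutation p of 0.1, the lower limit for groups of 3. The median raw signal, which is mostly background, was 132, 281 and 298 at 0 h and 43.7 to 44.7 at 12 h, and the median bead-to-bead coefficient of variation was 6.49% to 7.56% against 4.01% to 4.30%. Across the 4846 genes the normalized levels of 0 h array 1 correlated with the 12 h arrays at r = 0.82 to 0.83, whereas 0 h arrays 2 and 3 correlated with them at 0.61 to 0.64. The 12 h arrays correlated with each other at 0.96 to 0.99. The 5 mutant arrays of 0 h also had a raised median signal, 139 to 278, against 40.2 to 44.3 for mutant 12 h. Raised background at 0 h and time in culture therefore cannot be told apart in either genotype. Results are given with all 6 arrays and, for counts, list medians and many named genes, without 0 h arrays 2 and 3. That fit leaves 1 array at 0 h, which is assumed to vary like the arrays of the other groups.

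**Figure D1:**
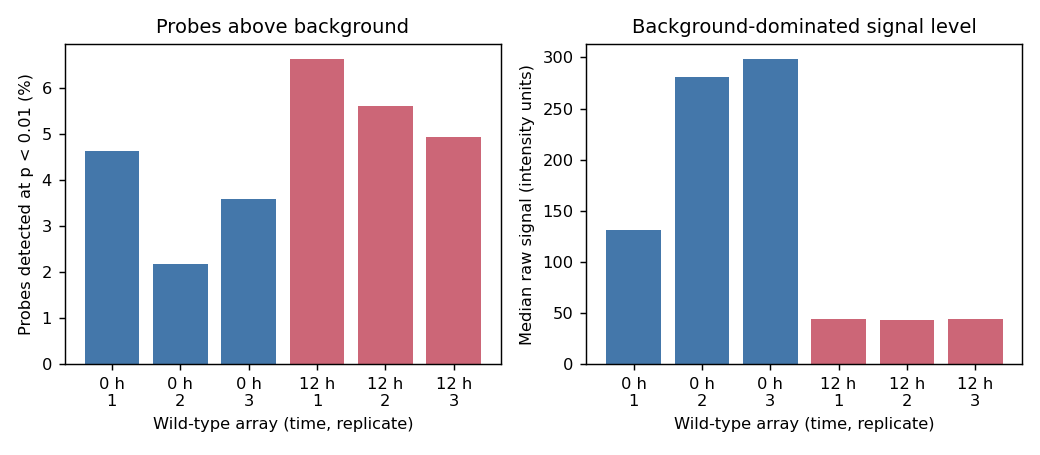
Share of the 25697 probes detected (left, percent) and median raw signal (right, intensity units) on each wild-type array, 3 at 0 h and 3 at 12 h. Detection ran from 2.17% to 4.62% at 0 h and from 4.92% to 6.62% at 12 h, and the median raw signal was 132 to 298 at 0 h and 43.7 to 44.7 at 12 h.

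Most genes that passed the test were higher at 12 h. Of the 4846 genes tested, 2166 were called (44.7%), 1742 higher (35.9%) and 424 lower (8.75%), and the median change of all genes was 0.36 on the log2 scale. This balance depended on the detection filter, since without one 2893 genes were higher and 3018 lower, and median centring left 997 calls. Few of these calls rest on genes measured on both sides. Among 344 genes detected on no 0 h array and on all 3 of 12 h, 340 were called higher. All 39 genes detected on all 3 arrays of 0 h and on none of 12 h were called lower. A further 878 calls, 767 higher and 111 lower, fell on the 3030 tested genes detected on none of the 6 arrays, for which no fold can be given. Without 0 h arrays 2 and 3 the calls numbered 1129 (23.3%), 748 higher (15.4%) and 381 lower (7.86%). Of the calls made with all 6 arrays, 715 higher and 245 lower were shared with that fit, and 1 had the opposite direction.

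**Figure D2:**
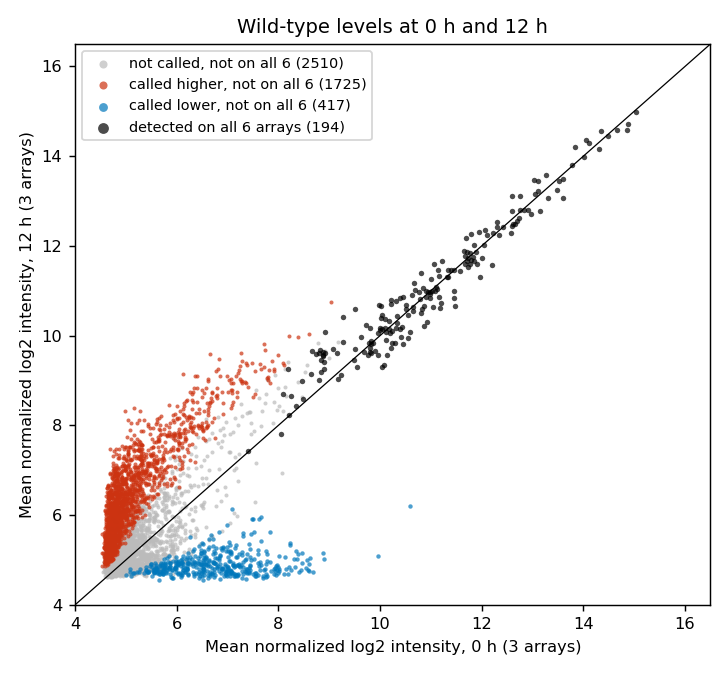
Mean normalized log2 intensity at 0 h (x axis, 3 arrays) and 12 h (y axis, 3 arrays) of 4846 genes, each gene 1 point, with the diagonal marking equal levels. The 194 genes detected on all 6 arrays (black) lie along the diagonal, the genes called higher (red) lie above it at low to middle levels, and the genes called lower (blue) lie in a separate arm near background at 12 h.

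Transcripts detected on all 6 arrays were centred near no change. For the 194 genes detected on all 6 arrays the median change was 0.01, with 17 called higher (8.76%) and 7 called lower (3.61%). The balance of these calls turned in the fit of the 6 arrays alone, with 2 higher and 6 lower, and was 5 and 4 without 0 h arrays 2 and 3. Hba-a1 lay at the top of the scale, where quantile normalization fixes its level, so its change cannot be read. Slc4a1, the anion exchanger band 3, changed by -0.03 (adjusted p = 0.925), with 0 h levels of 13.13, 12.96 and 12.43 and 12 h levels of 13.19, 12.96 and 12.28. Bnip3l, the mitophagy receptor that clears mitochondria from reticulocytes, changed by -0.15 (0.271), and Ncoa4, which delivers ferritin to autophagy, by -0.00 (0.993). These values are not absolute, because quantile normalization gives every array the same distribution. With median centring in its place the same 194 genes had a median change of 1.94 and 188 were called higher, and with the authors' processed values the median was 2.8 and all 194 were called higher. The scatter of wild-type levels shows this group as the points on the diagonal, where quantile normalization placed them.

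Among genes detected on all 3 arrays of 1 group and at least 1 of the other, 6 were called lower with groups that did not overlap. In the same class 125 were called higher, and over all 4846 genes the groups did not overlap for 54.2%. The 6 genes called lower were all abundant. Alas2 read 14.83, 14.91 and 14.83 at 0 h and 14.65, 14.56 and 14.56 at 12 h, a change of -0.27 (SE 0.05, adjusted p = 8.91e-05), which became 0.06 after median centring and 1.55 on the authors' values. Actb, cytoplasmic beta-actin, read 11.55, 11.70 and 11.20 at 0 h and 10.86, 10.71 and 10.40 at 12 h, a change of -0.83 (SE 0.19, adjusted p = 0.00113), against 0.995 and 2.15 in those 2 scalings. The 5 detected Actb probes ranged from -1.79 to 0.77, and the probe that gave the 0.77 did not pass the test (adjusted p = 0.172). Rpl23, a protein of the large ribosomal subunit, changed by -0.54 and Mcm5, a subunit of the replicative helicase, by -0.64, again with the sign turned in both scalings, and Mcm5 was no longer called without 0 h arrays 2 and 3 (adjusted p = 0.182, against 0.042). Rps27, of the small ribosomal subunit, and Atp5b, the catalytic beta subunit of ATP synthase, were called in the fit of 24 arrays and not in that of the 6 arrays alone, where their adjusted p were 0.176 and 0.0778, and both turned sign likewise. Without 0 h arrays 2 and 3 the adjusted p of Atp5b was 0.0528. Within the same arrays Alas2, and Actb on its brightest probe, stood lower relative to the other abundant messages, and their direction against the whole array depended on the scaling. The raw signal of Alas2 was 24676 to 26104 at 0 h and 26879 to 29942 at 12 h. The highest raw signal on any of these arrays was 30095 to 36491, so Alas2 lay near the top of the raw scale with little room to rise. The part of this limit in its fall was not tested. Genes of this group called higher included Eif5, a translation initiation factor, at 0.54 (SE 0.12, adjusted p = 0.000792), Glrx5, the mitochondrial glutaredoxin needed for iron-sulfur clusters, at 0.65 (0.00318), Oaz1, antizyme of ornithine decarboxylase, at 0.43 (0.00801) and Rnf10, a ubiquitin ligase, at 0.33 (0.018). These 4 kept their sign in all scalings and were still called without 0 h arrays 2 and 3, but none was called in the fit of the 6 arrays alone, where the adjusted p were 0.0567, 0.14, 0.0639 and 0.101. The other 2 probes of Eif5 changed by 0.23 (adjusted p = 0.39) and -0.30 (0.157), and the mean of its probes by 0.157 (0.353). These genes were chosen after their values were seen.

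The upstream sequence of Alas2 is shown because it was the heme synthesis gene called lower. The 250 bases before its start, from RefSeq on build GRCm38.p6, chrX:150547167-150547416, plus strand, are printed 5′ to 3′ with the match to AGATAA, the core bound by GATA factors, in capitals on whichever strand it lay. AGATAA was found on either strand in 9.99% of 32851 promoter windows of this length. By gene, it was found in 7.97% of the 4004 tested genes with a window, and in 1 of the 14 heme synthesis and iron-sulfur genes with a window.
Alas2: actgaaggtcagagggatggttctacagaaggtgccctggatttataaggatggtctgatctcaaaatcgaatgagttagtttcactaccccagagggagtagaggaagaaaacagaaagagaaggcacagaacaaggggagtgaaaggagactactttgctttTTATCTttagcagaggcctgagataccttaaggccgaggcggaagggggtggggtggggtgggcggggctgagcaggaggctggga

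The largest rises among genes measured on both sides rested mainly on 0 h arrays 2 and 3. All 10 genes with the largest rises in this class were detected on 1 of 3 arrays at 0 h and on all 3 at 12 h. Sqstm1, the p62 cargo receptor of selective autophagy, led with 7.99, 5.58 and 4.81 at 0 h against 9.08, 9.25 and 9.08 at 12 h, a change of 3.01 (SE 0.56, adjusted p = 0.000147). Its 0 h array 1 lay far above arrays 2 and 3, and without those 2 arrays the change was 1.15 (adjusted p = 0.159). The same pattern held for Cmas, which activates sialic acid (2.95, and 0.71 without the 2 arrays), Gda, guanine deaminase (2.73 and 0.64), Cnot4, a ubiquitin ligase tied to the mRNA deadenylase complex (2.65 and 1.19) and Ubxn1, a cofactor of the ubiquitin-selective ATPase VCP (2.54 and 0.90). Mrpl30, Smim7 and Phospho1 were also no longer called without those arrays. Of the 10, 2 were still called. Slc11a1, a divalent metal transporter known from phagocytes, read 7.27, 4.85 and 5.43 at 0 h and 8.44, 8.45 and 8.50 at 12 h, a change of 2.62 that was 1.19 without the 2 arrays (adjusted p = 0.00304). Pabpc4, a cytoplasmic poly(A)-binding protein, changed by 2.47 and by 1.18 without them (0.0467).

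A smaller set of calls held in several settings. A total of 295 genes (6.09% of all tested) were called higher and 129 (2.66%) lower in each of 6 settings: the fit of all 24 arrays, the fit of the 6 arrays alone, median centring, no background correction, the authors' processed values, and omission of 0 h arrays 2 and 3, which compares 1 array at 0 h with 3 at 12 h on the spread of the other groups. Of the 295, 198 were detected on all 3 arrays of 12 h and 57 on none of the 6, and of the 129, 37 were detected on all 3 arrays of 0 h and 3 on none. The calls named in the next paragraphs as robust are members of these sets. All 6 settings use the same wild-type arrays or a part of them, so each contains the raised background at 0 h. Robust therefore means stable to the processing, and it cannot tell that background apart from time in culture.

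The robust rises were led by genes that appeared above background at 12 h. For a gene not detected in 1 group the fold is a lower bound, computed against the lowest signal detected on each array. Slc16a6, of the monocarboxylate transporter family, was at least 2.36-fold higher (0 h levels 5.95, 4.85 and 4.66, 12 h levels 8.01, 8.07 and 9.05, adjusted p = 2.33e-07). Mkrn1, the ubiquitin ligase makorin 1, read 5.30, 4.83 and 4.83 at 0 h and 8.04, 8.47 and 8.45 at 12 h, at least 2.27-fold higher (2.41e-07). Cux1, a homeodomain transcription factor, was at least 2.27-fold higher, and Dstn, the actin-depolymerizing protein destrin, at least 1.97-fold. Vav2 was at least 1.97-fold higher. Sod1, cytosolic superoxide dismutase, read 5.80, 5.17 and 4.77 against 8.14, 8.15 and 8.04, at least 1.96-fold higher (6.72e-08). In the fit of the 6 arrays alone the adjusted p of these genes was 0.00472 to 0.008. In all 6 of these genes every 12 h array lay above every 0 h array, which follows largely from choosing them by detection at 12 h alone. Over all 4846 genes the groups did not overlap, in either direction, for 54.2%. Array 1 was the highest of the 0 h arrays in all 6. At 24 h, measured on a further 3 wild-type arrays, mean levels were 9.49 for Mkrn1, 8.59 for Sod1 and 8.23 for Dstn, and 6.74 for Slc16a6, 7.60 for Cux1 and 6.76 for Vav2.

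The falls were fewer and larger in bound. Trp53bp1, a DNA double-strand break repair protein, read 9.77, 11.18 and 10.80 at 0 h and 5.93, 6.28 and 6.41 at 12 h on its brightest probe, at least 18.6-fold lower (adjusted p = 1.34e-07). The other probe of Trp53bp1 was called higher, with a log2 change of 1.89, so the fall holds for 1 probe and not for the gene. Oser1, a serine-rich protein induced by oxidative stress, read 9.20, 10.15 and 10.52 and then 4.99, 5.21 and 5.06, at least 12.0-fold lower (9.43e-08). Abcf1, an ATP-binding protein of translation initiation, was at least 5.8-fold lower and Setd4, a lysine methyltransferase, at least 5.67-fold. On both, 0 h array 1 (6.96 and 6.89) lay about 3 log2 units under arrays 2 and 3. Pcyox1l, a prenylcysteine oxidase-like gene, was at least 5.0-fold lower. Ikbkb, a kinase that activates NF-kappaB, read 7.92, 8.84 and 9.08 against 5.02, 5.10 and 4.98, at least 4.75-fold lower (3.63e-09). The genes named so far in this paragraph were chosen by detection at 0 h alone. In the fit of the 6 arrays alone their adjusted p was 0.00472 to 0.0112. At 24 h Oser1, Abcf1, Setd4, Pcyox1l and Ikbkb had mean levels of 4.64 to 5.75. The lowest level detected on a wild-type array of 24 h was 6.00 to 6.12. Trp53bp1 had a mean of 6.67, above those levels. Pklr, the pyruvate kinase of red cells and liver, read 7.94, 7.10 and 7.87 at 0 h and had a mean of 4.77 at 12 h, at least 2.4-fold lower (4.73e-09), and Tyms, thymidylate synthase, was at least 1.87-fold lower (5.16e-07). Messages restricted to other tissues were also among the falls. The 3 families below were chosen after seeing the values, and 8.75% of all genes were lower. Of 38 olfactory receptor genes tested 12 were called lower and 13 higher, and 15 to 29 of the 1143 probes of this family were detected on a 0 h array against 16 to 20 on a 12 h array. All 3 vomeronasal receptor genes tested were called lower, and of 8 keratin genes 3 were higher and 2 lower.

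**Figure D3:**
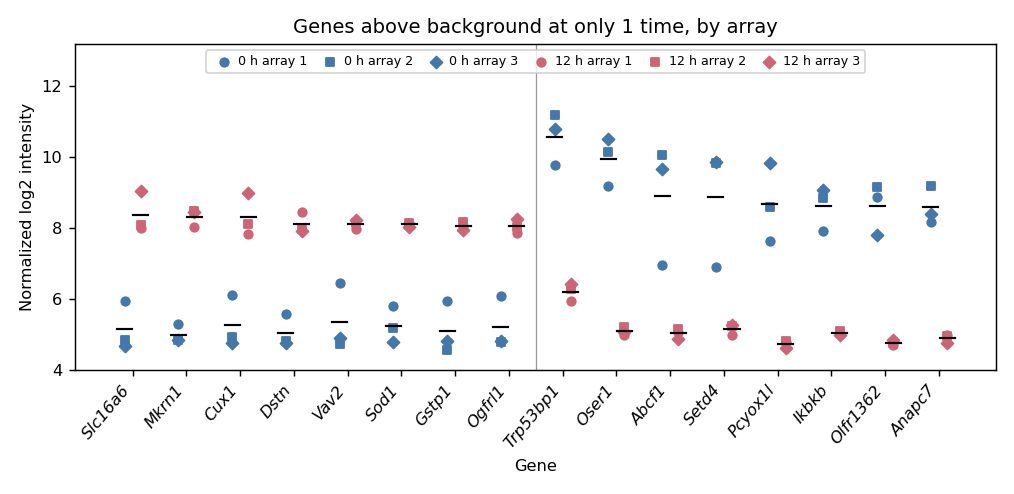
Normalized log2 intensity (y axis) of 16 genes detected in only 1 of the 2 groups, the 8 largest lower bounds of fold in each direction among the robust calls, with each array a point (0 h blue, 12 h red) and the group mean a bar. Array 1 is the highest 0 h array for all 8 genes that were higher at 12 h, and for 7 of the 8 genes that were lower it is the lowest. Each gene is shown by its probe of highest mean, and the other probe of Trp53bp1 was called higher.

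Gene lists are described by counts and medians beside those of all 4846 genes (35.9% higher, 8.75% lower, median 0.36, and 0.27 without 0 h arrays 2 and 3), with no test of the list. Of the 4846 genes 3030 were detected on none of the 6 arrays, and many list members likewise lay in background. Few globin genes passed the test, whereas heme synthesis genes were called in about the share of the whole array. Of 7 globin genes 1 was called higher, Hbq1b, a theta-type globin gene detected on 0 and 2 arrays (adjusted p = 0.0001), and the median was -0.04, which is the value of Hba-a1 at the top of the scale. Of 17 heme synthesis and iron-sulfur genes 7 were higher and 1, Alas2, lower, with a median of 0.28. Slc25a38, the mitochondrial glycine carrier of heme synthesis, was at least 1.1-fold higher (0.000318). Its change of 1.95 was 1.01 without 0 h arrays 2 and 3, where it was not called (0.131), and no gene of the list was robust. Of 9 iron handling genes 3 were higher. Snx3, a sorting nexin that recycles the transferrin receptor, read 4.72, 4.84 and 4.69 at 0 h and 7.03, 7.06 and 7.39 at 12 h, at least 1.01-fold higher and robust (8.73e-11). In the fit of the 6 arrays alone the adjusted p of Snx3 was 0.00472. Tfrc, the transferrin receptor, changed by 1.75 (0.0692), and by -0.24 without 0 h arrays 2 and 3.

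Membrane genes were higher in about the share seen on the whole array or above it. Of 14 membrane skeleton genes 10 were higher and 1 lower (median 0.99, and 0.61 without the 2 arrays). Tmcc2, an endoplasmic reticulum protein, was at least 1.7-fold higher and robust (adjusted p = 3.63e-07). Tmod1, which caps the actin filaments of the skeleton, changed by 2.29 and by 0.73 without 0 h arrays 2 and 3, where it was not called. Of 20 surface transporters and antigens 10 were higher and 1 lower (median 0.71, and 0.03 without the 2 arrays). Cd47, the signal that restrains phagocytes, read 4.71, 4.56 and 4.61 and then 6.49, 6.63 and 6.67, and Icam4, the LW blood group adhesion molecule, 5.09, 4.66 and 4.68 and then 6.84, 6.92 and 7.04. Both were robust rises, and no bound can be given because their 12 h means lay below the mean of the lowest levels detected on the 0 h arrays. Aqp3, a water and glycerol channel, read 6.85, 6.73 and 6.72 and then 4.83, 4.95 and 4.98, at least 1.32-fold lower and robust (3.21e-05).

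Genes of protein breakdown had more members higher than lower, as did the whole array. Of 27 ubiquitin-conjugating enzymes and ligases of red cells 14 were higher and none was lower (median 0.82, and 0.30 without the 2 arrays). The robust members were Mkrn1, Fbxo9, the substrate receptor of a cullin ligase (at least 1.17-fold higher, adjusted p = 1.81e-06), the ligase Rnf123 (2.27e-06) and the conjugating enzyme Ube2r2 (3.22e-05). Fbxo9 reached a mean of 10.30 at 24 h. Of 36 proteasome genes 16 were higher and 3 lower (median 0.77). Psmd14, the deubiquitinase of the regulatory particle, was at least 1.11-fold lower and was the robust member. Of 23 autophagy genes 9 were higher and none was lower (median 0.38), with no robust member. Ulk1, the kinase that starts autophagy, changed by 1.39 (0.00797), and by -0.05 without 0 h arrays 2 and 3. Gabarapl2, an autophagosome membrane protein, was detected on 0 and 2 arrays (0.00167, and 0.131 without the 2 arrays), and Map1lc3b, of the same family, was detected on none of the 6. Of 17 mitophagy and mitochondrial dynamics genes 6 were higher and 1 lower (median 0.42), and Mfn1, a fusion GTPase of the outer membrane, was robust (1.68e-07). Of 28 lysosome genes 12 were higher and none was lower (median 0.43), with none robust.

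Respiratory chain genes were called higher in a larger share than the whole array, and mitochondrial ribosomal protein genes in a smaller one. The lists also differed in detection. Of the 54 mitochondrial ribosomal protein genes 44 were detected on none of the 6 arrays, against 15 of 32 for complex I and 14 of 42 for complexes II to V. The part of detection in these shares was not tested. Of 32 genes of respiratory complex I 16 were higher and none was lower (median 0.69). Ndufa12, Ndufb6, Ndufa10 and Ndufa7 were robust, with bounds of at least 1.1-fold for Ndufb6 and 1.12-fold for Ndufa10. Of 42 genes of complexes II to V 21 were higher and 1 lower (median 0.64), and 6 were higher without 0 h arrays 2 and 3, against 15.4% of all genes in that fit. Atp5j, a coupling factor of ATP synthase, was at least 1.29-fold higher (adjusted p = 1.17e-06) and Cox5b, of cytochrome oxidase, changed by 2.45 and by 1.18 without the 2 arrays (0.0327), both robust with Cox14. Of 28 genes of the TCA cycle and import 10 were higher and none was lower (median 0.35), and Timm8b, an intermembrane space chaperone, was robust. Of 54 mitochondrial ribosomal protein genes 13 were higher and 3 lower (median 0.28), and the 1 robust member, Mrpl55, was lower.

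Genes of cytosolic translation comprised ribosomal proteins and translation factors. Of 52 cytosolic ribosomal protein genes, 37 of them detected on all 6 arrays, 10 were higher and 3 lower, with a median of 0.03 that was 1.72 after median centring and 2.64 on the authors' values. The robust members Rpl7l1 and Rpl7a were both undetected at 0 h and detected on all 3 arrays of 12 h. Rpl7a was at least 1.05-fold higher, and no bound can be given for Rpl7l1. Of 43 translation factors, 3 of them detected on all 6 arrays, 25 were higher and 1 lower (median 0.79, and 0.28 without the 2 arrays). Eif3c, a core subunit of initiation factor 3, read 4.89, 4.89 and 4.92 and then 7.25, 6.96 and 6.68 (adjusted p = 1.99e-08). No bound can be given for Eif3c. Paip2, a repressor that binds poly(A)-binding protein, was at least 1.02-fold higher and Eif2s3x, the gamma subunit of initiation factor 2, at least 1.4-fold. Pabpc4 and Eif2ak1 were the other two robust members.

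Genes of the integrated stress response were called higher in a share near that of the whole array, which was 35.9%. Of the 19 tested, 8 were detected on none of the 6 arrays. Of 19 genes of the integrated stress response, in which phosphorylation of initiation factor 2 favours translation of ATF4, 8 were higher and 1 lower (median 0.70, and 0.56 without the 2 arrays). Eif2ak1, the heme-regulated kinase of this pathway, was at least 1.15-fold higher (adjusted p = 3.74e-05). Atf4 read 5.12, 4.82 and 5.04 and then 6.89, 7.21 and 6.95 (8.62e-07). No bound can be given for Atf4, because its 12 h mean lay below the mean of the lowest levels detected on the 0 h arrays. Ppp1r15a, the phosphatase subunit that reverses the phosphorylation, read 4.95, 4.79 and 4.84 and then 6.89, 7.47 and 7.67, at least 1.15-fold higher (3.14e-07). All 3 were robust. Asns, asparagine synthetase and a known ATF4 target, changed by 2.20 (0.00152) and by 0.21 without 0 h arrays 2 and 3 on its brightest probe. Its promoter is shown as that of a target of the pathway: 250 bases from RefSeq on GRCm38.p6, chr6:7693210-7693459, minus strand, 5′ to 3′, with the match to TGATGNAA, a form of the ATF4 composite site, in capitals. Of the 4004 tested genes with a window, 2.87% had a match to this motif. This motif, searched on both strands, lay in 3.45% of 32851 windows and in 5 of the 17 genes of the list with a window: Asns and Aars, both called higher with all 6 arrays and neither without 0 h arrays 2 and 3, and Chac1, Gars and Herpud1, which did not pass the test.
Asns: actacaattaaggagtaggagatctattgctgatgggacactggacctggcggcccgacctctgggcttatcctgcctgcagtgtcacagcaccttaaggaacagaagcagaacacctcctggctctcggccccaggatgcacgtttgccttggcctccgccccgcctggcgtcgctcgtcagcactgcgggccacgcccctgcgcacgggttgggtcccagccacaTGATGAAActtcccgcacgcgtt

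Oxidative defense, polyamine and histone genes gave further robust calls. Of 17 glutathione and methylglyoxal genes 6 were higher and 1 lower (median 0.47), and Gstp1, a glutathione transferase, read 5.93, 4.55 and 4.82 and then 8.05, 8.17 and 7.96, at least 1.89-fold higher (adjusted p = 7.85e-07). Of 20 superoxide, peroxide and reductase genes 5 were higher and 2 lower (median 0.29). Of 11 polyamine and nucleotide genes 5 were higher and 1, Tyms, lower. Odc1, ornithine decarboxylase, which starts polyamine synthesis, was at least 1.29-fold higher (1.52e-05) and its antizyme Oaz2 at least 1.31-fold (1.11e-05). Of 37 core histone and chromatin genes 26 were higher and 2 lower, with the highest median of the lists, 1.34, which was 0.42 without 0 h arrays 2 and 3, where 10 were higher. H2ac22 read 5.62, 4.74 and 4.69 and then 7.71, 7.71 and 7.79, at least 1.52-fold higher (9.41e-08), and H2bc12 was at least 1.36-fold higher. Of 30 interferon-induced genes 15 were higher and 1 lower (median 0.58). Irf7, a transcription factor of the interferon response, was at least 1.14-fold higher (5.09e-05), and Ifi27 and Oas3 were also robust. Of 25 chaperone genes 11 were higher and 2 lower (median 0.62), and the small heat shock protein gene Hspb6 was robust. Erythroid transcription factors had 9 higher and 1 lower of 21 (median 0.46), and the robust member was Mxi1, a MYC antagonist.

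**Figure D4:**
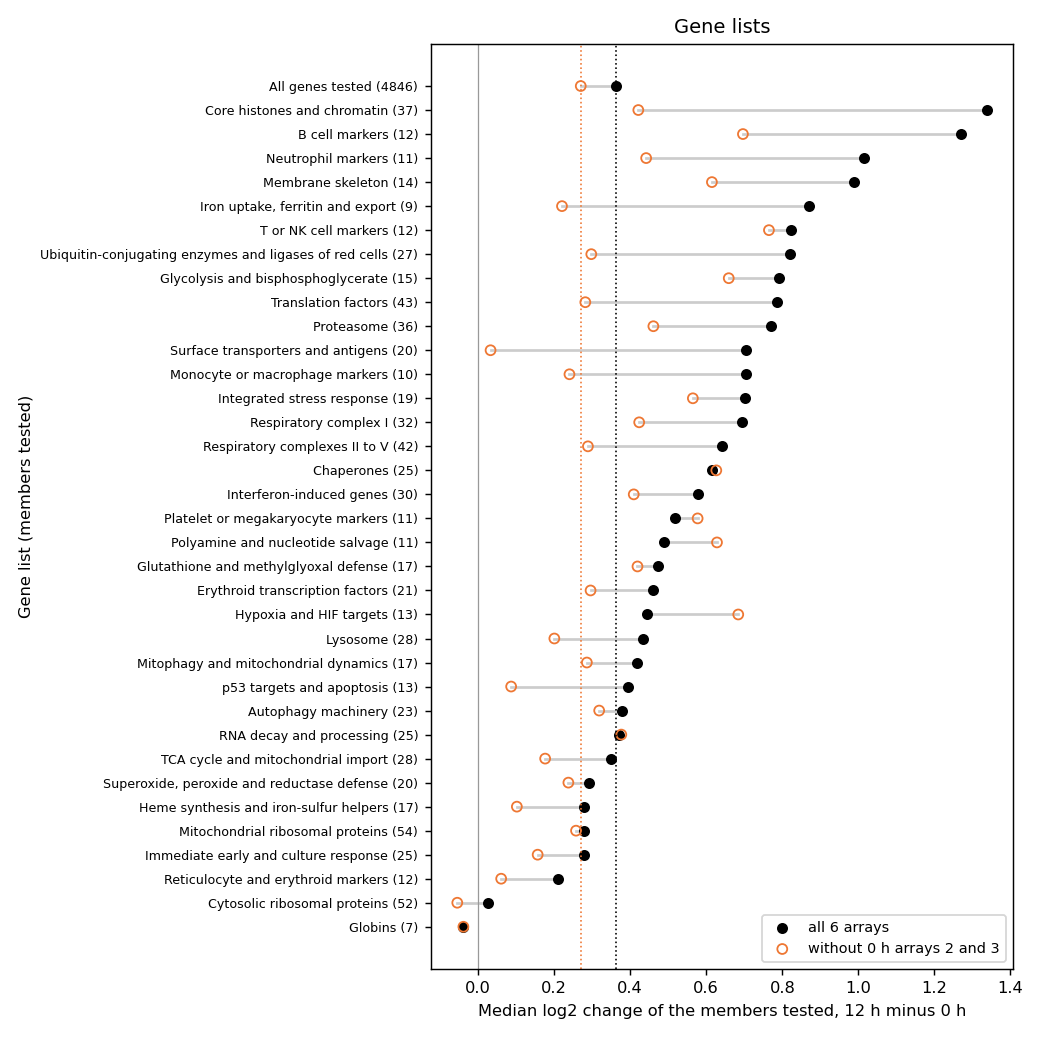
Median log2 change, 12 h minus 0 h (x axis), of the tested members of each gene list (y axis, number tested in brackets) with all 6 arrays (filled) and without 0 h arrays 2 and 3 (open), and dotted lines at the medians of all 4846 genes, 0.36 and 0.27. Core histones lead at 1.34 and drop to 0.42 without the 2 arrays.

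The remaining lists held few robust calls. Of 15 glycolysis genes 7 were higher and 2 lower (median 0.79). Of 13 hypoxia genes 5 were higher and 1 lower (median 0.44), of 13 p53 and apoptosis genes 4 were higher (0.39), and of 25 RNA decay genes 9 were higher (0.37). Of 25 immediate early genes, which cells with a nucleus induce when handled, 5 were higher and 1 lower (median 0.28), with none robust. Jund led them (adjusted p = 0.000812) and was detected on 1 array.

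Markers of other blood cells were low, and several passed the test. The summed linear levels below include undetected members and the offset added in processing, so part of each sum is background. Of 12 B cell markers 7 were higher (median 1.27, and 0.70 with 1 higher without 0 h arrays 2 and 3), 4 were detected on none of the 6 arrays (Cd22, Cd37, Ly6d and Vpreb3), and the summed linear level was 1221, 475 and 455 on the 0 h arrays and 1264 to 1800 at 12 h. Cd74, the class II invariant chain, read 8.34, 6.41 and 5.32 and then 8.62, 8.62 and 8.36, so 0 h array 1 lay with the 12 h arrays. Of 12 T or NK cell markers 4 were higher and 6 undetected, with sums of 954, 543 and 586 against 1090 to 1105. Of 11 neutrophil markers 2 were higher and 1 lower and 4 undetected, with sums of 2100, 752 and 1241 against 1234 to 2133. Of 10 monocyte markers 4 were higher and 6 undetected, with sums of 1192, 319 and 325 against 597 to 1050, so 0 h array 1 exceeded every 12 h array. Of 11 platelet markers 3 were higher and 5 undetected, with sums of 361, 310 and 856 against 508 to 2057. Pf4, a platelet chemokine, read 6.52, 6.51 and 8.64 at 12 h, highest on array 3. Of 4 nucleated or cycling cell markers 2 were higher and 1 lower. One of them, Birc5, the mitotic protein survivin, was a robust rise, with 5.13, 5.07 and 4.73 at 0 h and 6.99, 7.07 and 7.05 at 12 h (adjusted p = 0.000102), undetected at 0 h and detected on all 3 arrays of 12 h. No bound can be given for Birc5. No eosinophil, basophil or mast cell marker of 8 on the array was detected on enough arrays to be tested. None of the white cell and platelet markers was robust. The part of other blood cells in the gene changes was not tested.

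Several probes of a gene often disagreed. Of 845 genes with more than 1 tested probe, all probes were higher for 178, all lower for 1, some called in 1 direction for 374, none called for 256, and probes were called in opposite directions for 36. At the level of probes 2817 of 6312 were called (44.6%). For 116 genes 2 or more probes were each detected on all 3 arrays of a group, and among these all such probes were higher for 59, some were called for 42 and none for 14. The 1 gene with opposite calls was Trp53bp1. Its second probe, matched to the same RefSeq transcript as the one that fell, read 4.93, 4.75 and 4.93 at 0 h and 6.50, 6.80 and 6.99 at 12 h, a rise on the log2 scale of 1.89 (adjusted p = 3.64e-07) beside the -4.38 of the other. Where on the transcript either probe lies was not analysed here.

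Bright and dim probes of a gene gave different changes. In 12 genes 1 or more probes were detected on all 6 arrays and another was detected on the 3 arrays of 12 h and none of 0 h. In 12 of 12 the dim probe gave the higher change. The bright probes had a median change of 0.12 (range -0.60 to 1.07), with 3 called higher and 9 not passing, and the dim probes a median of 2.10 (range 0.28 to 2.74), with 11 called higher. Smox, spermine oxidase, has 5 probes to 1 transcript. Its brightest read 11.80, 11.85 and 11.90 at 0 h and 11.97, 12.09 and 11.97 at 12 h, a change of 0.16 (adjusted p = 0.206), and the next 0.13 (0.42). Its middle probe changed by 1.18 (0.00366), and its 2 dim probes, undetected at 0 h, by 2.74 (6.29e-06) and 2.45 (1.84e-05). For Ift20, an intraflagellar transport protein, the bright probe changed by -0.09 and the dim one by 2.59, and for Elob, a subunit of elongin, 2 bright probes changed by 0.01 and 0.08 and another by 2.65. The bright probes called higher were those of Pithd1 (1.07), St3gal5 (0.83) and Pabpc1 (0.36). The small changes of the others hold for quantile normalization: with median centring and with the authors' values the bright probe changed by 2.09 and 2.37 for Ift20, and by 1.34 and 2.31 for Plec. Detection of the dim probes was by definition limited to 12 h, so their direction was fixed by that choice.

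**Figure D5:**
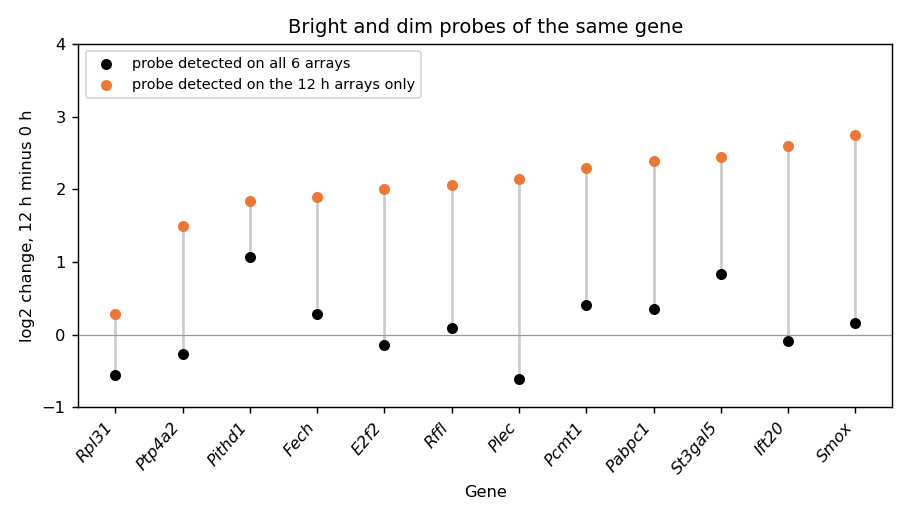
log2 change, 12 h minus 0 h (y axis), of the probe detected on all 6 arrays (black) and of the probe detected on the 3 arrays of 12 h and none of 0 h (orange) in 12 genes (x axis), ordered by the dim probe. Each orange point lies above the black point of its gene, with medians of 2.10 and 0.12.

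In other genes the probes gave similar changes. Trip12, a ubiquitin ligase, changed by 2.30 and 2.33 on its 2 detected probes, Ifi27 by 2.26 and 2.40, Asns by 2.20 and 2.11, and Tmem134 by 2.44 and 2.10. Ybx3, a cold shock protein that binds mRNA, changed by 2.10, 2.40 and 2.11 on 3 probes. For Ifi27 the brightest probe was still called without 0 h arrays 2 and 3, at 1.42 (adjusted p = 0.0185). For Trip12, Asns, Tmem134 and Ybx3 it was not, at 0.19, 0.21, 0.09 and 0.80.

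The mutant arrays measured the same interval with 5 replicates per time and no shared arrays. The calls of both genotypes come from 1 fit with a shared normalization and estimate of the spread, so they are not fully independent. There 1350 genes were called (27.9%), 1126 higher (23.2%) and 224 lower (4.62%). Of the wild-type rises 610 were also called higher in the mutant, which is 35% of the wild-type list and 54.2% of the mutant list. Of the wild-type falls 163 were shared, which is 38.4% and 72.8%, and 3 genes were called in opposite directions. Of the 295 robust rises 134 were called higher in the mutant (45.4%) and none lower, and of the 129 robust falls 79 were called lower (61.2%) and none higher. Their median changes were smaller in the mutant, 0.44 beside 1.84 for the rises and -0.94 beside -2.58 for the falls. These genes were chosen by their wild-type change, so a smaller change in the mutant arrays cannot be read as a genotype difference. The median of all 4846 genes was 0.25 in the mutant and 0.36 in the wild type. Both genotypes share the difference in background between the 0 h and 12 h arrays, and the mutant arrays detected more probes, up to 17.04% at 0 h and 12.97% to 28.8% at 12 h.

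The change itself differed between genotypes for 755 genes (15.6%) by limma's interaction contrast, with the mutant change the higher for 163 (3.36%) and the lower for 592 (12.2%). Without wild-type 0 h arrays 2 and 3 the count was 473, of which 50.3% had the higher mutant change. The count was 98 with median centring (9.18% with the higher mutant change) and 1464 with array weights. Of the 755, 720 were also called in the wild-type change, as were 44.7% of all genes. The interaction contrast contains that change and uses the same wild-type arrays, so much of the overlap is built in. The smallest p belonged to Snx3, detected on no mutant array at either time, whose change was 2.41 in the wild type and -0.04 in the mutant. Mr1, which presents microbial metabolites to T cells, read 7.74, 9.22 and 8.25 in the wild type at 0 h and 4.81, 4.74 and 4.64 at 12 h, at least 4.1-fold lower, and was detected on no mutant array of either time. Bloc1s5, a subunit of a lysosome-related organelle complex, was at least 3.86-fold lower in the wild type and did not pass in the mutant (adjusted p = 0.181). Rec8, a meiotic cohesin, was at least 1.73-fold lower in the wild type and did not pass in the mutant (0.222). Rpl7l1 and Ptbp3, an RNA-binding protein of splicing, were higher in the wild type, Ptbp3 by at least 1.26-fold, with smaller mutant changes of 0.25 (0.0916) and 0.52 (0.0152). Rpl23 and Alas2 also differed: both were lower in the wild type and higher in the mutant, by 0.18 (0.042) and 0.19 (0.00123), values that move with the scaling as above. For Alas2 the wild-type change also carries the limit of the raw scale given above.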

How the data were processed

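Total RNA was amplified, biotin-labelled and hybridized to Illumina mouse bead arrays, and the labels also name the DASL protocol. Per the file headers, the deposited unnormalized table gives for every probe its signal intensity on each array, neither normalized nor background-subtracted by the authors. The detection p-value beside it is also as deposited. The authors' processed intensity values, on a linear scale, served as an alternative, and the steps behind them are not given in the sources used here.

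Intensities were corrected with limma's neqc (R 4.3.3, limma 3.58.1), which fits the normexp model with background inferred from the detection p-values, adds an offset of 16 and applies quantile normalization and log2. Probes with a detection p-value below 0.01 on at least 3 of 24 arrays were kept: 6312 of 25697, covering 4846 named genes, each represented by its kept probe of highest mean. Gene names come from the array annotation, with 16593 names on 23978 probes. Group means were fitted to all 24 arrays (18 residual degrees of freedom) with eBayes and an intensity trend, and p-values were adjusted by the Benjamini-Hochberg method over all genes. The pipeline was tested on simulated data. Signal over background and the 3 arrays per group limit the precision.

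Genes were named by rule: the largest changes among genes detected on both sides, the largest bounds among genes detected on one side, members of fixed lists with the smallest p, the smallest interaction p and the widest and most concordant probe sets. The members, lists and rules were chosen with earlier results of these data known. Robust calls, genes detected on all 6 arrays and the olfactory, vomeronasal and keratin families were added after seeing the values. Same-numbered 0 h and 12 h arrays had residual correlations of 0.00307, 0.0684 and 0.1, and differently numbered ones -0.103 to 0.0404. With 3 arrays a group these values cannot decide whether the numbers pair the samples. The labels give no pairing, so none was used in the main fit. Figures were drawn with matplotlib 3.10.9.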

Additional observations from a re-analysis of the deposited data

Results flagged for a closer look

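For 6 genes the change from 0 to 12 h differed between the genotypes with the smallest p in limma's interaction test. The mutant change minus the wild-type change was -2.45 for Snx3 (adjusted p = 9.63e-09), 3.3 for Mr1 (6.65e-07), 3.14 for Bloc1s5 (1.4e-06), 2.24 for Rec8 (4.2e-06), -1.57 for Rpl7l1 (9.14e-06) and -2.15 for Ptbp3 (9.14e-06), all on the log2 scale. Snx3 and Mr1 were detected on no mutant array of 0 or 12 h, so their mutant change lies within background. For Rec8, 1 of the 5 mutant arrays at 0 h lay apart from the other 4, with a gap of 0.738 of the group's range, which chance gives in about 1 of 20 groups.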

How the results depend on the processing

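The 2166 genes called in the wild-type change became 997 with median centring, 5911 without a detection filter (48.9% of them higher, against 80.4%), 722 when 3 of the 6 wild-type arrays had to detect the probe (92.9% higher), 3579 with a detection p below 0.05 (70.1%), 1129 without 0 h arrays 2 and 3 (66.3%, chosen after seeing the data) and 6 when only genes detected on all 6 arrays were tested (50%, likewise). In the same order the 2817 probes became 1243, 8451, 903, 4616, 1484 and 10, and the interaction count of 755 became 98, 1229, 495, 1198, 473 and 3, and 1464 with array weights. The 1350 mutant calls became 659 with the authors' values, 2896, 174 and 2110 under the 3 filters, and 26 among genes detected on all 6 arrays. The difference in the share of probes detected was 5.90 points at a detection p below 0.05. Fewer or more genes tested follow from the filters themselves, and for the other settings the cause was not tested.

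Leaving out 1 wild-type array at a time gave 1777 to 2320 genes and 2329 to 2985 probes in the wild-type change, 1271 to 1581 in the mutant change, 527 to 1262 in the interaction (1262 without 0 h replicate 1) and a detection difference of 1.61 to 2.84 points. The replicate number was also used as a block, although the labels state no pairing. This gave 2440 genes and 3144 probes in the wild-type change, 1598 genes in the mutant change and 922 in the interaction.

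Direction turned for abundant genes in 2 scalings, median centring and the authors' values, given in that order: Actb 0.995 and 2.15, Mcm5 1.23 and 2.51, Rpl23 1.10 and 2.53, Alas2 0.059 and 1.55, Atp5b 1.28 and 2.50, Rps27 1.31 and 2.04, Hbb-bt 1.36 and 2.77, Slc4a1 1.60 and 2.97, Bnip3l 0.983 and 2.45, Ncoa4 2.05 and 2.84, Plec 1.34 and 2.31, Ift20 2.09 and 2.37, Rpl9 1.46 and 2.47, and Hba-a1 1.28 with the authors' values. With the mean of all probes, Rpl23 changed by 0.0592, Ccng1 by -0.0135, Plec by 0.609 and Ift20 by 1.12. Without 0 h arrays 2 and 3, Ulk1 changed by -0.0546 and Fzr1 by -0.101.

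The main limits are the raised background and low detection at 0 h, which time in culture cannot be told apart from, 3 arrays a group, and a level scale that is relative within each array. Slide and scan are not given in the sources used here and were not used as a block.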
